A study of Mus musculus with 2 samples.

Results

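The BCL2 family genes described here are the 3 survival genes Mcl1, Bcl2l1 and Bcl2, the 2 effector genes Bax and Bak1, and the 5 BH3-only genes Bbc3, Bcl2l11, Bad, Bid and Pmaip1. These 10 genes, of 43346 named genes in the tables, were listed by symbol and matched by Ensembl identifier, and their 40 annotated transcripts were taken from the transcript tables. The study consists of 2 paired-end libraries of polyA RNA from G1E-ER4 cells, which the labels number as biological replicates 1 and 2. G1E-ER4 is an immortalised, male mouse erythroid line derived from GATA1-null G1E cells, and it carries a fusion of GATA1 to an estrogen receptor domain that estradiol switches on. Both libraries are from cells given 10 nM 17beta-estradiol for 14 h, they form the 1 group of the study, and the labels tie both to the same biosample record. Nothing states that they are separate cultures, so any difference between them may be in part technical. No uninduced sample was analysed here, so every value below is a level at 14 h or a difference between libraries.

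The BCL2 family decides whether the outer mitochondrial membrane stays intact. Its effectors BAX and BAK1 form pores that release cytochrome c, the survival proteins bind the effectors and their activators, and the BH3-only proteins sense stress and either occupy the survival proteins or activate the effectors directly. In erythroid cells, BCL-XL, the product of Bcl2l1, is known as the survival protein that erythropoietin and GATA1 sustain during maturation, and MCL1 is known to be needed at earlier stages.

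Replicate 1 held 38395481 expected counts, which are estimated numbers of fragments, and replicate 2 held 60097379. For a gene with no count, the upper limit of 3 counts corresponds to 0.0802 CPM (scaled counts per 1000000) in replicate 1 and 0.0486 CPM in replicate 2, for counting error only. All 11 erythroid markers passed 1 TPM (a level corrected for transcript length and scaled to a sum of 1000000) in both libraries, as did 3 of 5 megakaryocyte markers and 1 of 6 granulocyte and macrophage markers. None of the 4 mast cell, 5 lymphoid or 5 fibroblast and endothelial markers did. The erythroid marker TPM summed to 27566 in replicate 1 and 76911 in replicate 2, mostly from the globins Hba-a1 and Hbb-bs. The megakaryocyte markers summed to 55.4 and 66.0 TPM in replicates 1 and 2, of which Gp1ba alone held 47.7 and 56.8 TPM. Each of the other 4 lists summed to 1.56 TPM or less in either library.

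RNA of the survival genes Mcl1 and Bcl2l1, of both effector genes and of some BH3-only genes was present at high levels at once. Most of the Bak1 level, however, lay on a transcript without the full protein. Most of the TPM of Mcl1 and Bbc3 in both libraries, and of Bad in replicate 1, lay on transcripts annotated as short or incomplete. Of the 10 genes, 8 reached 1 TPM in both libraries, against 19.7% of all named genes. The level of 50 TPM was reached in both by 6 of the 10, against 4.62% of all named genes and 23.5% of the expressed genes. Mcl1, Bcl2l1, Bax, Bak1, Bbc3 and Bad were the 6. Bcl2l11 and Bid were expressed at lower levels, Bcl2 passed 1 TPM in replicate 1 only, and Pmaip1 was not detected. The median expressed gene stood at 19.2 TPM. Levels are given per length, as TPM and as mean ± SD with n = 2.

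**Figure D1:**
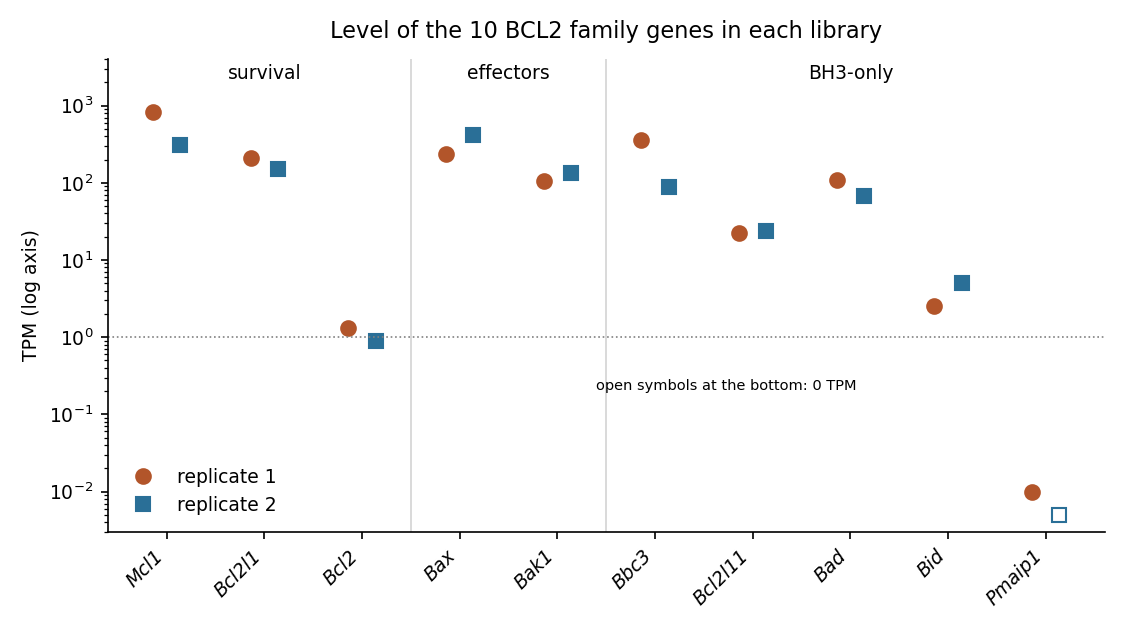
TPM on a log axis of the 10 genes in replicate 1 (circles) and replicate 2 (squares), ordered by role. The dotted line marks 1 TPM and an open symbol is a value of 0. Bcl2 lies at 1.30 and 0.89 TPM, far below Mcl1 at 835 and 309 TPM.

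Mcl1 encodes a short-lived survival protein that binds BAK1 and several BH3-only proteins, and lies on chromosome 3 from 95658788 to 95663176 of GRCm38. It had 835 TPM in replicate 1 and 309 TPM in replicate 2 (572 ± 372), the highest level of the 10 in replicate 1 and the next after Bax in replicate 2. Its 24112 and 15451 counts ranked it 177th and 436th by TPM among the named genes. That level depended on the transcript to which the reads were assigned. Mcl1-202, a model of 858 bases that holds coding sequence and no untranslated region, took 91.0% of the gene's TPM in replicate 1 and 91.7% in replicate 2, but 68.3% and 70.0% of its counts. Mcl1-201, the full model of 3485 bases with 331 codons, took the other 9.02% and 8.28% of TPM.

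Mcl1-202 lacks 138 bases of the first coding exon, 46 whole codons, so the reading frame is kept. GENCODE marks the model as having a non-canonical intron. The segment lies at chr3:95658909-95659046 on the plus strand of GRCm38. It is printed here, read from the GENCODE M21 sequence of Mcl1-201, because the model without it carried most of the gene's level. The absent bases are in capitals and 20 coding bases on each side are in lower case:
Mcl1 segment: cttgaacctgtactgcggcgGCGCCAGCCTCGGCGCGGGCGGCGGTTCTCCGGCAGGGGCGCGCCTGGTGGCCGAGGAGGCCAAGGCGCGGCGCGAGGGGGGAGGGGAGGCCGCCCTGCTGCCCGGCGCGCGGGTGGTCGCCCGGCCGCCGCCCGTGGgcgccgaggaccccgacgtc
The segment is 85.5% G or C, against 48.7% for the whole of Mcl1-201. It begins with GC and ends with GG, where a standard intron begins with GT and ends with AG, and its first 5 bases, GCGCC, are also the first 5 bases after it. The 2 models differ both in this segment and in their untranslated regions, the files give no reads per exon, and which of these set the share was not tested. Counted per kilobase of its longest coding transcript, Mcl1 still led the 10 genes in replicate 1, with 185 CPM per kilobase, but in replicate 2, with 71.9, it followed Bax, Bcl2l1 and Bak1.

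Bcl2l1 encodes BCL-XL and lies on chromosome 2 from 152780668 to 152831728, on the minus strand. It had 207 TPM in replicate 1 and 152 TPM in replicate 2 (179 ± 38.9), from 14209 and 17120 counts. Among the 6 highest genes, only Bak1 had a smaller spread relative to its mean. Bcl2l1-201, which codes for the whole protein of 233 codons from the most distal start, carried 97.4% and 82.9% of the TPM. Bcl2l1-202, with the same codons and a start nearer the coding exons, carried 1.26% and 3.34%.

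The libraries differed in a transcript of Bcl2l1 with no annotated coding sequence. Bcl2l1-209, a processed transcript of 961 bases that starts inside the gene, held 2.64 counts in replicate 1 and 774.89 in replicate 2, or 0.05% and 11.7% of the gene's TPM. The RefSeq promoter windows of GRCm38 around both starts, each from 250 bases before to 50 bases after a start on the minus strand, are printed because each belongs to a separate message of the gene. The distal window, chr2:152831679-152831978, has the first base of Bcl2l1-201 as its start, and the start of the intronic window, chr2:152828440-152828739, lies 46 bases inside Bcl2l1-209. Capitals mark AGATAA or AGATAG, and likewise TGATAA or TGATAG, on either strand, the letters that GATA factors are known to bind, with overlapping matches counted separately:
Bcl2l1 distal start: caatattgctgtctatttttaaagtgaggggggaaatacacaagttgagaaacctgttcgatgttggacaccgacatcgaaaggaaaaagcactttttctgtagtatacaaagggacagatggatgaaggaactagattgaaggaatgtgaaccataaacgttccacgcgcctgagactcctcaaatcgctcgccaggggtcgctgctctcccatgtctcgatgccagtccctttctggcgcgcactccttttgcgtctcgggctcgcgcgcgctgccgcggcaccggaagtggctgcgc
Bcl2l1 intronic start: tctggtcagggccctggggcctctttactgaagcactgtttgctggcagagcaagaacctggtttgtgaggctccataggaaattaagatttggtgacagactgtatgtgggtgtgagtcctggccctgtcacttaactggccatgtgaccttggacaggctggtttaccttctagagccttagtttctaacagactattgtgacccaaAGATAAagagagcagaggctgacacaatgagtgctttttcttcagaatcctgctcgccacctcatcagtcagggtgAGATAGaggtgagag
The intronic window held 2 matches and the distal window 0. Both matches lie downstream of the first base of Bcl2l1-209, at 152828535, so neither lies before the start of that model. Of 32851 RefSeq windows of the same 300 bases, 29.8% held at least 1 match and 7.77% held 2 or more. Among the 15 windows of 9 of the genes, the only other one with a match was that of Bid, with 1. A match describes the letters of a window and is not a binding site.

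Bcl2, the founding survival gene of the family, was close to the threshold of expression. It lies on chromosome 1 from 106538178 to 106714274 and had 1.30 TPM in replicate 1 and 0.89 TPM in replicate 2 (1.10 ± 0.29), from 164 and 342 counts. The 2 libraries disagreed on its transcript. Bcl2-202, which codes for a form without the membrane anchor, took 66.6% of the TPM in replicate 1 and 0% in replicate 2, where all reads were placed on the full model Bcl2-201. The TPM was therefore higher in replicate 1, while the scaled count was higher in replicate 2, and no direction can be read for this gene.

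Bax encodes the effector BAX, a direct target of p53, and lies on chromosome 7 from 45461697 to 45466898. It had 235 TPM in replicate 1 and 411 TPM in replicate 2 (323 ± 124), from 5167 and 15934 counts. In replicate 2 it was the highest of the 10 genes. The tables hold 1 transcript of Bax, with 192 codons, so no part of its level depends on a choice between transcripts. A gene on the same strand, Gm45808, overlaps it in GENCODE M21 and is not in the tables.

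Bak1 encodes the effector BAK1 and lies on chromosome 17 from 27019810 to 27029009. It had 106 TPM in replicate 1 and 136 TPM in replicate 2 (121 ± 20.7), from 5941 and 13276 counts. Most of this level was placed on Bak1-201, which GENCODE M21 types as a target of nonsense-mediated decay, with 98.2% of the TPM in replicate 1 and 79.9% in replicate 2. The coding model Bak1-202, with 209 codons, took 1.80% and 14.9%. The level on protein-coding transcripts was thus 1.92 TPM in replicate 1 and 20.2 TPM in replicate 2.

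Bak1-201 contains a short exon of 20 bases, its exon 5, at chr17:27021663-27021682, that Bak1-202 skips. A short exon of this gene is known from mouse neurons, where its use lowers BAK1 protein. Both junctions are printed on the minus strand from GENCODE M21, with the short exon in capitals and 30 bases of each neighbouring exon in lower case, because they separate a message with the full protein from one without it:
Bak1-201 (with the short exon): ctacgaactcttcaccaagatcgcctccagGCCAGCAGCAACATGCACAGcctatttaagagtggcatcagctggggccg
Bak1-202 (without it): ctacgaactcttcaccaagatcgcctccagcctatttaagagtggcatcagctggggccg
The exon's 20 bases leave a remainder of 2 when divided by 3, so it shifts the reading frame, and the model's coding part ends after 151 codons, 89 bases before the last exon junction. The models also differ in the first exon, of 168 bases in Bak1-201 and 599 in Bak1-202. The files give no reads per exon, so whether the short exon or the first exon decided the share was not tested. Ggnbp1 overlaps Bak1 on the opposite strand and had 2.80 and 3.83 TPM in replicates 1 and 2.

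Bbc3 encodes PUMA, a BH3-only protein and p53 target that binds every survival protein of the family, and lies on chromosome 7 from 16308393 to 16318205. It was the highest BH3-only gene, with 355 TPM in replicate 1 and 88.8 TPM in replicate 2 (222 ± 188), from 5941 and 3999 counts. Bbc3-202, a model of 485 bases that lacks the end of the coding sequence, carried 84.0% and 62.2% of the TPM but 51.6% and 24.7% of the counts. The complete model Bbc3-201, of 1814 bases and 193 codons, carried 15.9% and 37.4% of the TPM. The short model was thus given more weight in replicate 1, and the TPM of the gene differed more between libraries, 3.995-fold, than its scaled count, 2.45-fold.

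Pmaip1 encodes NOXA, a BH3-only protein and p53 target that binds mainly MCL1. It had 1 count in replicate 1 and 0 in replicate 2, where 3 counts would equal 0.0221 TPM. By the gene lengths behind TPM, Bbc3 exceeded it 26987-fold in replicate 1, with a 95% counting interval of 4842 to 1066130. In replicate 2 the limit of 3 counts for Pmaip1 gave 4009-fold, and the lower bound of the 95% interval was 3259-fold. These folds rest on Bbc3 effective lengths of 550 and 828 bases in replicates 1 and 2. The complete model Bbc3-201 has 1667 and 1658, which would make them smaller. Per kilobase of the longest coding transcript, Bbc3 had 87.6 and 35.7 CPM, and Pmaip1 had 0.0101 and 0. Both genes are known p53 targets, and Trp53, the p53 gene, was at 171 TPM in replicate 1 and 151 TPM in replicate 2.

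Bad encodes a BH3-only protein that growth factor kinases keep inactive by phosphorylation, and lies on chromosome 19 from 6941861 to 6951899. It had 108 TPM in replicate 1 and 67.3 TPM in replicate 2 (87.8 ± 29.0), from 2065 and 2666 counts. The libraries placed it on different transcripts. Bad-204, an incomplete model of 663 bases without a start codon, took 74.3% in replicate 1 and 43.7% in replicate 2, and Bad-202, with 162 codons, took 16.1% and 47.2%. Gpr137 overlaps the start of Bad on the opposite strand and had 52.8 and 38.8 TPM.

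Bcl2l11 encodes BIM, which activates the effectors directly and is controlled by FOXO3, and lies on chromosome 2 from 128126038 to 128162547. Relative to its mean, its level differed least between libraries, with 22.1 TPM in replicate 1 and 24.0 TPM in replicate 2 (23.1 ± 1.36), from 669 and 1407 counts. Transcripts with no coding sequence, Bcl2l11-206 and Bcl2l11-208, together held more of the TPM than any coding one, with 41.0% and 31.0% for the first and 21.2% and 19.3% for the second. Among the coding models, the short form BIM-S of 110 codons (Bcl2l11-204) carried 30.9% in replicate 1 and 40.5% in replicate 2. BIM-L, of 140 codons (Bcl2l11-203), carried 4.14% and 7.09%, and BIM-EL, of 196 codons (Bcl2l11-205), carried 0.21% and 1.74%. As shares of counts, which favour long transcripts, BIM-S held 16.3% and 19.4%, BIM-L 14.1% and 22.3%, and BIM-EL 1.04% and 7.90%. BIM-S thus led the coding forms by TPM in both libraries, but by count in replicate 1 only.

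Bid encodes the BH3-only protein that caspase-8 cleaves to link death receptors to mitochondria, and lies on chromosome 6 from 120891930 to 120916853. It was the lowest of the genes expressed in both libraries, with 2.54 TPM in replicate 1 and 5.04 TPM in replicate 2 (3.79 ± 1.77), from 131 and 550 counts. Bid-201, of 195 codons, carried 78.8% and 88.1% of the TPM. Casp8, the gene of that caspase, had 0 counts in both libraries. Bcl2l13 overlaps the end of Bid on the opposite strand and had 58.7 and 42.7 TPM.

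**Figure D2:**
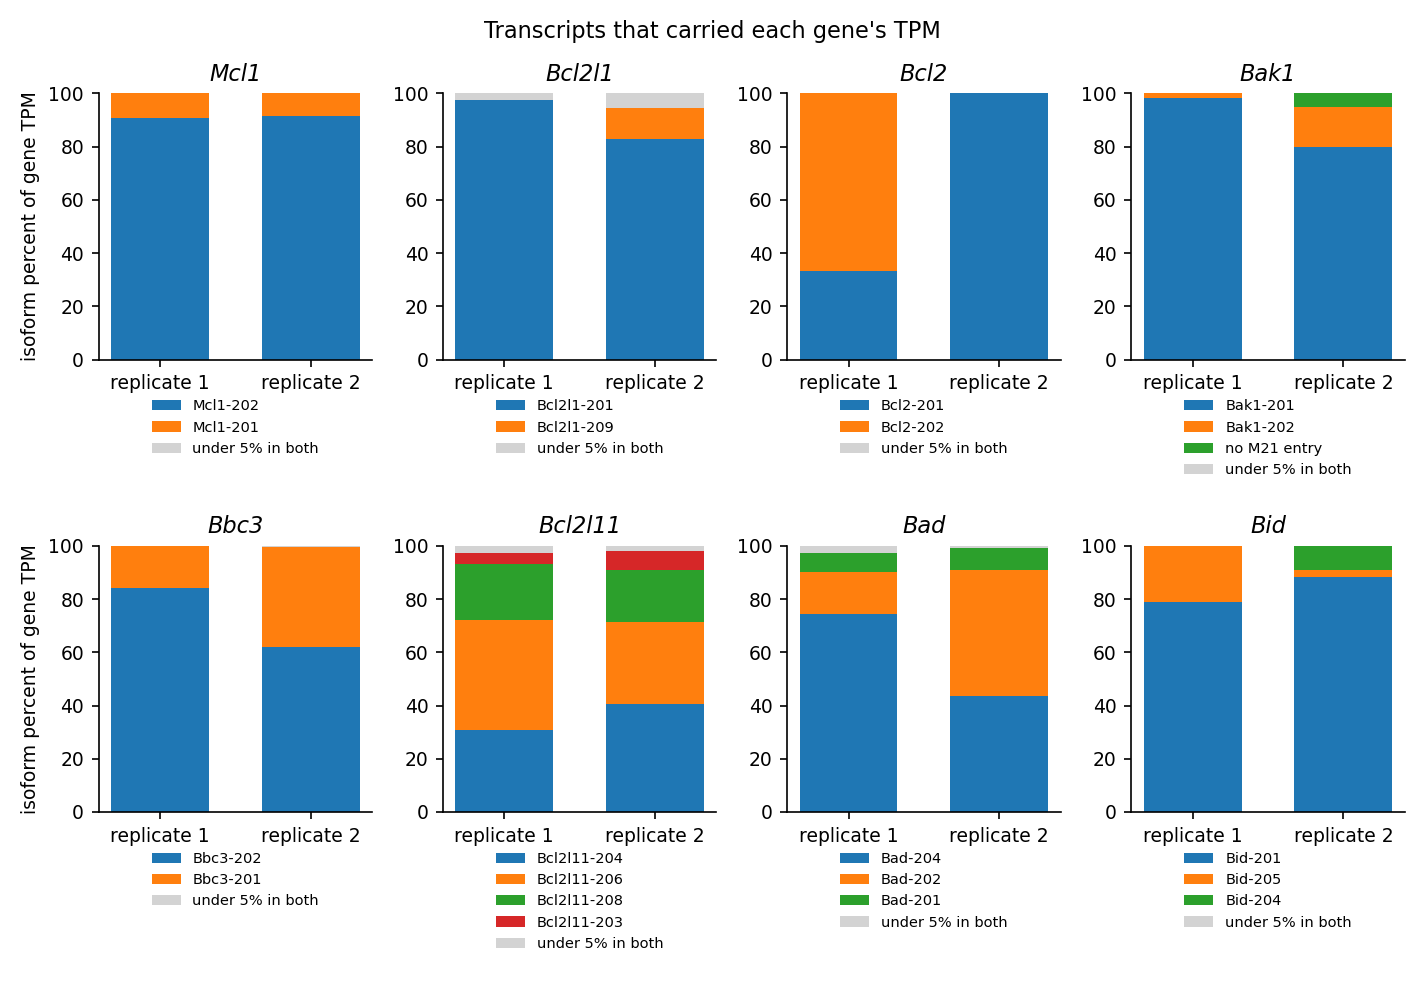
Isoform percent, the share of a gene's TPM on each transcript, in replicate 1 (left bar) and replicate 2 (right bar) for the 8 genes above 1 TPM on average with 2 or more transcripts. Bbc3-202 and Bad-204 have smaller shares in replicate 2, and Bak1-201 leads Bak1 in both libraries with 98.2% and 79.9%.

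Across the 40 transcripts, 13 carried 10% or more of their gene's TPM in both libraries and 7 had 0 counts in both. A transcript whose isoform percent differed by 20 points or more between libraries was found in 2 of the 7 expressed members with several transcripts, Bbc3 and Bad, beside 36.7% of all expressed genes with several transcripts. Under 50% of the TPM on protein-coding transcripts in both libraries was found for 2 of the 8 expressed members, Bak1 and Bcl2l11, beside 16.9% of all expressed protein-coding genes. With counts this small, neither share was read as a property of the family.

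The libraries differed in several of these genes, and in both directions. Counts were compared with an exact two-sided binomial test per gene, on expected counts scaled by the TMM method, with p adjusted over all 11230 genes with at least 10 counts in sum. Calls needed a fold of at least 1.5 beside an adjusted p under 0.05. The test sets 1 library against 1 library, covers counting error only and says nothing about estradiol. Of the 9 members tested, 4 were called, beside 41.4% of all genes tested. Mcl1 and Bbc3 were higher in replicate 1, as were 17.1% of all genes, and Bax and Bid were higher in replicate 2, as were 24.3%. The share among the members was near that background.

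Mcl1 had 2.57 times the scaled count in replicate 1 that it had in replicate 2 (95% interval 2.52 to 2.63), and Bbc3 had 2.45 times (2.35 to 2.55). Bax had 0.535 times the scaled count in replicate 1 that it had in replicate 2 (0.518 to 0.552), and Bid had 0.393 times (0.322 to 0.476). The adjusted p of the exact binomial test was 6.15e-25 for Bid and smaller for the other 3. A survival gene and a BH3-only gene were thus the higher ones in replicate 1, and an effector and another BH3-only gene in replicate 2.

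The other 5 members stayed under the 1.5-fold limit. The scaled count in replicate 1 was 1.37 times that in replicate 2 for Bcl2l1 and 1.28 times for Bad. It was 0.738 times for Bak1, 0.791 times for Bcl2 and 0.784 times for Bcl2l11. Their exact binomial adjusted p-values lay between 2.50e-165 for Bcl2l1 and 0.019 for Bcl2, so these smaller differences were also beyond counting error. With a fold of at least 2, Bax was no longer called. With the fold taken from TPM, Bad was called as well, at 1.61-fold.

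The ratio between libraries differed with the GC content of the genes, and several erythroid markers also differed between libraries. Mcl1 and Bbc3, with 61.2% and 73.2% G or C in their most abundant transcripts, were the members in the GC-richest of 10 equal bins of genes, which spans 59.8% to 77.0%. The median log2 ratio of replicate 1 over replicate 2 in that bin was 0.41, against -0.05 over all genes tested, and its 95th percentile was 1.43, against 1.21. The log2 ratios of Mcl1 and Bbc3, 1.36 and 1.29, lay above the 95th percentile of all genes and below that of their GC bin. Genes were also placed in 10 equal bins of effective length, the length that TPM divides by. There both ratios lay above the 95th percentile of their own bin, 1.11 for Mcl1 and 1.27 for Bbc3. That length also depends on the transcript model. For Mcl1 the GC bin depends on the transcript model. By the full model Mcl1-201, a choice made after its value was seen, the GC content is 48.7%. The median of that bin is -0.11 and its 95th percentile is 1.21, which Mcl1 exceeds. The complete model Bbc3-201, with 65.2% G or C, leaves Bbc3 in the richest bin. The log2 ratios of Bid, -1.34, and Bax, -0.90, lay inside the 5th to 95th percentiles of their own GC bins and of their own length bins. Among the 11 erythroid markers, 3 were called higher in replicate 1 and 6 higher in replicate 2, beside 17.1% and 24.3% of all genes tested. Hbb-bs had 13158 TPM in replicate 1 and 49651 TPM in replicate 2. The 3 higher in replicate 1 were the erythroid factor genes Klf1, with 1422 and 754 TPM in replicates 1 and 2, Zfpm1, with 4080 and 2191 TPM, and Tal1, with 329 and 246 TPM. Another factor gene of the list, Gata1, was called higher in replicate 2, with 1132 and 2656 TPM in replicates 1 and 2. The factor gene Nfe2 was not called, nor was Epor. The part of GC content, of length or of erythroid state in the members' differences was not tested.

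**Figure D3:**
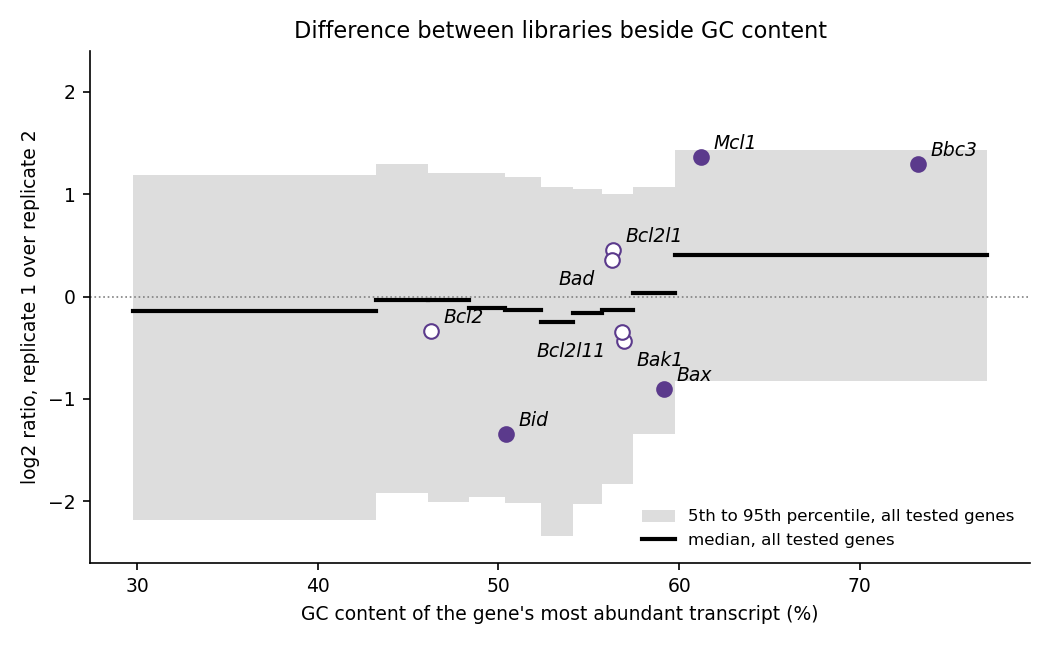
Log2 ratio of scaled counts, replicate 1 over replicate 2, against the GC content of each gene's most abundant transcript, for the 9 members tested (filled where called). Grey bands are the 5th to 95th percentiles and black lines the medians of all tested genes in each of 10 bins of GC content. Mcl1 and Bbc3 sit at 1.36 and 1.29 in the richest bin, whose median is 0.41; Mcl1 is placed by its short model Mcl1-202, and its full model has 48.7% G or C.

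The balance of the 3 roles was not the same in the 2 libraries. The survival genes summed to 1043 TPM in replicate 1 and 461 TPM in replicate 2, the effectors to 341 and 546 TPM, and the BH3-only genes to 488 and 185 TPM. Survival genes held 55.7% of the family's TPM in replicate 1 and 38.7% in replicate 2, and effectors held 18.2% and 45.8%. Ratios were formed within each library as log2 of TPM + 0.1, which understates the difference against low genes, and counted as larger than the spread when the sign was the same in both libraries and the mean exceeded 2 times the range.

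Of 13 ratios, 7 were larger than the spread. Bcl2l1 exceeded Bcl2 by 7.21 and 7.26 on the log2 scale in replicates 1 and 2 (7.23 ± 0.04), 148-fold and 153-fold. The reads of Bcl2 were placed on different transcripts in the 2 libraries, so this small spread depends on that placement. Per kilobase of the longest coding transcript, Bcl2l1 had 148 and 108 CPM in replicates 1 and 2, and Bcl2 had 0.610 and 0.771. Mcl1 exceeded Bcl2 by 9.22 and 8.29 (8.75 ± 0.66). Bax exceeded Bak1 by 1.14 and 1.60 (1.37 ± 0.32), and by 5.60 on average when protein-coding transcripts alone were counted. Mcl1 exceeded Bbc3 by 1.24 and 1.80 (1.52 ± 0.40), and Bbc3 exceeded Pmaip1. Bid was below Bad, with log2 ratios of -5.36 and -3.71. Survival genes exceeded BH3-only genes by 1.10 and 1.32 (1.21 ± 0.16), 2.14-fold and 2.49-fold.

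The other 6 ratios did not exceed the spread between libraries. Mcl1 exceeded Bcl2l1 by 2.01 in replicate 1 and 1.03 in replicate 2, and Bbc3 exceeded Bcl2l11 by 3.997 and 1.88. The log2 ratio of Bcl2l1 over Bax was -0.19 in replicate 1 and -1.44 in replicate 2. For 3 ratios even the sign differed. Mcl1 over Bax was 1.83 in replicate 1 and -0.41 in replicate 2, survival genes over effectors 1.61 and -0.24, and effectors over BH3-only genes -0.51 and 1.56. On protein-coding transcripts alone, survival genes summed to 1043 and 444 TPM in replicates 1 and 2 and effectors to 237 and 431 TPM, so the sign was then the same in both libraries, but the mean log2 ratio of 1.09 was not larger than the spread. In the order of mean TPM, Mcl1, Bax, Bbc3, Bcl2l1, Bak1 and Bad, each neighbouring pair changed places between the libraries except Bcl2l1 and Bak1, so most of this order is not larger than the spread. Bcl2l11, Bid, Bcl2 and Pmaip1 kept the last 4 places, in that order, in both libraries.

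**Figure D4:**
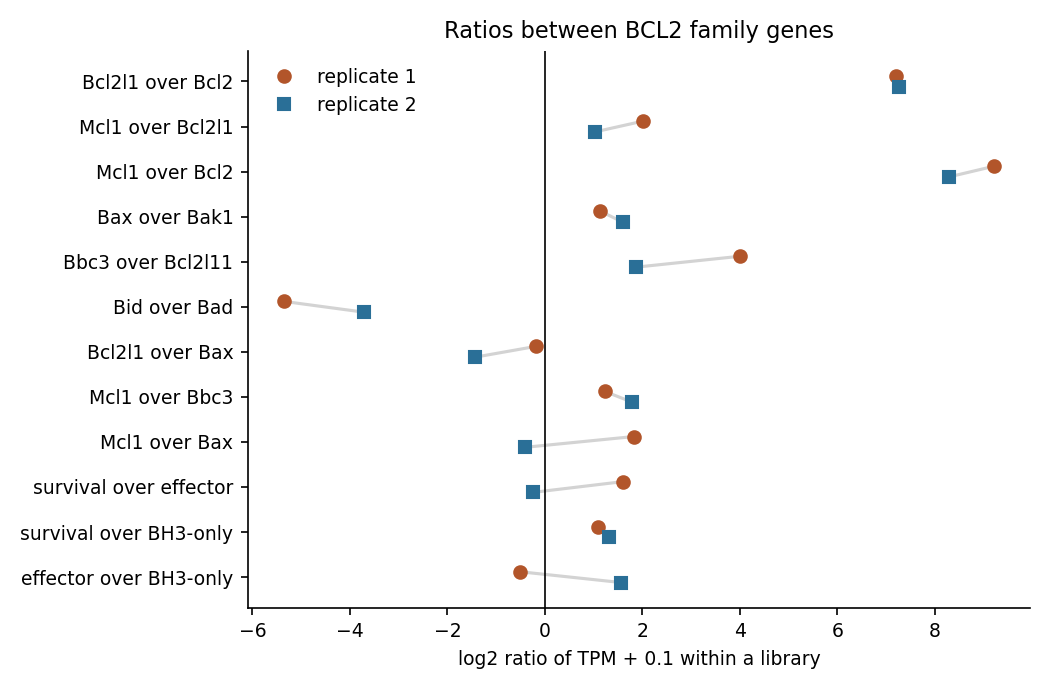
Log2 ratio of TPM + 0.1 within replicate 1 (circles, above) and replicate 2 (squares, below) for 12 of the 13 ratios; Bbc3 over Pmaip1 is left out because Pmaip1 has at most 1 count. Ratios to Bcl2 and survival over BH3-only genes stay on one side of 0, while Mcl1 over Bax is 1.83 in replicate 1 and -0.41 in replicate 2.

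Of 10 further multidomain genes, some of them survival genes, 3 passed 1 TPM in both libraries, beside 19.7% of all named genes. They were Bcl2l12 at 125 ± 22.8 TPM, Bcl2l13, a mitochondrial autophagy receptor, at 50.7 ± 11.4 TPM, and Bcl2l2, which encodes the survival protein BCL-W, at 34.1 ± 6.26 TPM. Bcl2l2 was called higher in replicate 1, 1.65-fold, and the other 2 were not called; its counts were not whole, so some of its reads were shared with another gene. The survival genes Bcl2a1a, Bcl2a1b, Bcl2a1d and Bcl2l10, and also Bcl2l14, had 0 counts in both libraries. Bcl2l15 had 0 and 2 counts, and Bok, an effector relative, had 5 and 2 counts. The 3 Bcl2a1 genes are near-identical copies.

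Of 8 further BH3-only or BH3-containing genes, 5 passed 1 TPM in both libraries, beside 19.7% of all named genes. Between libraries 0 of these 5 were called, beside 41.4% of all genes tested. Their exact binomial adjusted p was under 0.05 for each, but each stayed under the 1.5-fold limit in scaled counts. The largest fold of scaled counts was that of Moap1, 1.43-fold higher in replicate 2. In TPM, Bnip3l differed more, with 111 in replicate 1 and 57.3 in replicate 2, while its scaled count differed 1.09-fold. Bnip3, a mitophagy receptor, stood at 356 ± 50.1 TPM. Becn1, a core autophagy gene, stood at 185 ± 17.6 TPM, Bcl2l12 as above, Bnip3l, which encodes the receptor NIX that removes mitochondria from maturing red cells, at 84.4 ± 38.3 TPM, and Moap1 at 5.02 ± 1.00 TPM. The death genes Bmf and Hrk had 0 counts in both libraries, and Bik had 0 in replicate 1 and 7 in replicate 2. Together with the 10 main genes, the BH3-only death genes with message were thus Bbc3, Bad, Bcl2l11 and Bid, and those at or near 0 were Pmaip1, Bmf, Hrk and Bik.

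**Figure D5:**
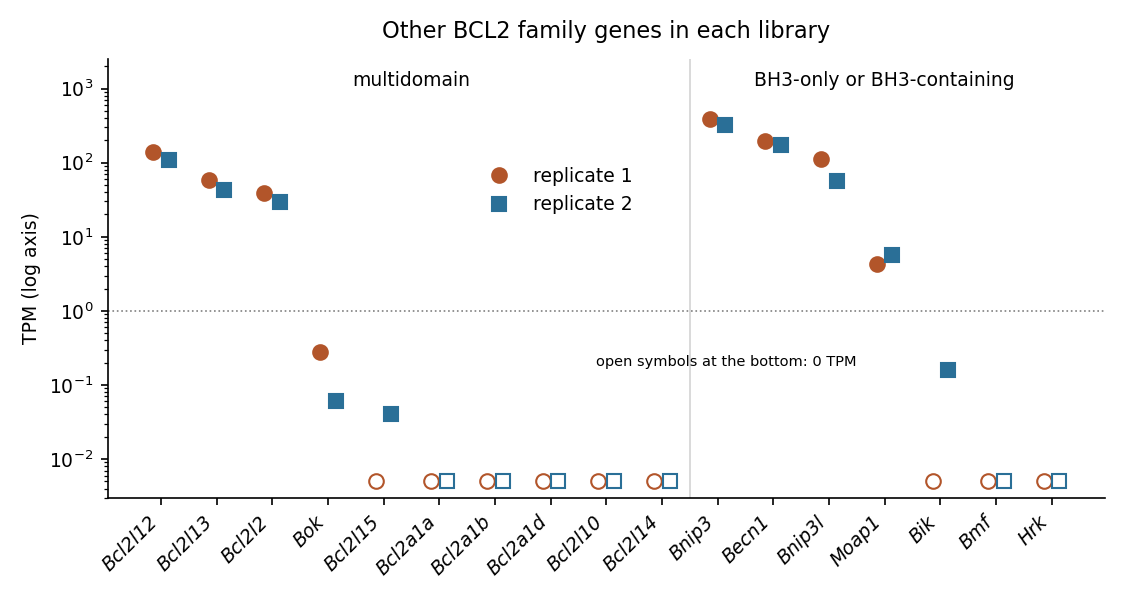
TPM on a log axis of 17 further BCL2 family genes in replicate 1 (circles) and replicate 2 (squares), multidomain genes on the left; Bcl2l12, which is in both lists, is drawn once. Open symbols at the bottom are values of 0, and 7 genes are at 0 in both libraries.

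Of 13 genes of the mitochondrial death steps, 12 passed 1 TPM, beside 19.7% of all named genes. Vdac2, an outer membrane channel that holds BAK1, led at 308 ± 17.8 TPM, followed by Htra2, a protease that pores release, at 117 ± 18.4 TPM. Of the 13, 1 was called higher in replicate 1 and 5 higher in replicate 2, beside 17.1% and 24.3% of all genes tested, and the median log2 ratio was 0.09 beside -0.05.

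Of 19 genes whose proteins stabilise, degrade, modify or tether members, 18 passed 1 TPM, beside 19.7% of all named genes. Tpt1, whose product binds MCL1 and BCL-XL, led at 2041 ± 209 TPM, and Pim1, a kinase that phosphorylates BAD, followed at 464 ± 278 TPM. Casp8 was the one not detected. Of the 18 tested, 3 were called higher in replicate 1 and 5 higher in replicate 2, beside the same 17.1% and 24.3%, and the median log2 ratio was 0.12.

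Of 12 transcription regulators of members, 10 passed 1 TPM, beside 19.7% of all named genes. Gata1 led, at 1132 TPM in replicate 1 and 2656 TPM in replicate 2 (1894 ± 1077); the reads of the fusion and of a native gene cannot be told apart here. Myc followed at 388 ± 25.2 TPM. Trp73, a relative of Trp53, had 1 count in replicate 1 and 0 in replicate 2. Of the 10 tested, 1 was called higher in replicate 1 and 3 higher in replicate 2, beside 17.1% and 24.3% of all genes, and the median log2 ratio was -0.19.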

How the data were processed

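PolyA RNA of the 2 G1E-ER4 libraries was quantified by the authors per gene and per transcript. Per the labels the build is mm10 and the reads are paired, and the deposited notes name GENCODE M4. The column names are those of RSEM; aligner, versions and strand setting are not given in the sources. The deposited expected counts estimate fragments per gene or transcript, with reads of several origins divided among them. The deposited TPM divides them by effective length and scales to a fixed sum, so reads placed on a short transcript raise it. Isoform percent, as deposited, gives each transcript's share of the TPM of its gene. The authors' interval bounds of TPM (a signal unit) are not printed.

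Of 43346 named genes, 42462 received symbols by identifier from GENCODE M21 (GRCm38). Of the 40 transcripts of the 10 genes, 39 had an M21 sequence and 34 of these the deposited length; types, exons and coordinates are those of M21, lengths the deposited ones. The 26345 rows naming no gene held 5.2e-06% of the counts in replicate 1 and 0% in replicate 2 and were left out. All gene counts of the 10 genes were whole within 0.005. Totals differ 1.57-fold, so low genes are more precise in replicate 2.

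A gene counted as expressed at 1 TPM and high at 50 TPM in both libraries, and as not detected under 0.1 TPM in both. Counts were rounded, scaled by TMM (edgeR 4.0.16, R 4.3.3) and compared with exact binomial tests (scipy 1.17.1), with Benjamini-Hochberg adjustment; 0.5 counts were added for log2 ratios, and intervals are exact (Clopper-Pearson, 95%). The procedure was tested on simulated data. No test between conditions exists with 1 group. GC content is that of the most abundant transcript. Alternatives covered DESeq2 1.42.0 size factors, total scaling, filters, thresholds, pseudocounts, coding transcripts, counts per kilobase and single libraries. All 10 genes were named; from other lists, the 2 highest and those not detected, and all members of both family lists. The genes and lists were chosen with earlier results of these data known. Protein sequences were not used here. Further genes are named where a result on a member turned on them, as chosen after their values were seen. Some genes of these lists are not reported here by name.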

Additional observations from a re-analysis of the deposited data

How the results depend on the processing

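The number of the 10 genes expressed was 8, and 7 to 9 under other thresholds, with scaled CPM or without either replicate: 9 without replicate 2 and 8 without replicate 1. The 4 genes called between libraries were the same 4 with DESeq2 size factors, with total count scaling and without the filter on low counts; 3 were called at a fold of at least 2, without Bax, and 5 with the fold from TPM, with Bad added at a log2 ratio of 0.69. On protein-coding transcripts only, the mean level of Bak1 was 11.1 TPM in place of 121, and that of Bcl2l11 10.0 TPM in place of 23.1; the mean log2 ratio of Bax over Bak1 was then 5.60 in place of 1.37, that of Bbc3 over Bcl2l11 4.16 in place of 2.94 and that of survival genes over effectors 1.09 in place of 0.68. Counts per kilobase of the longest coding transcript gave Bbc3 over Bcl2l11 a log2 ratio of 3.79, larger than the spread, and turned the sign of 3 mean ratios that were within the spread: Mcl1 over Bcl2l1 to -0.13, Mcl1 over Bax to -0.91 and survival genes over effectors to -0.27. Leaving out globin, ferritin and mitochondrially encoded genes raised the mean TPM of every one of the 10 genes by a similar share, for example Mcl1 to 622, Bax to 357, Bcl2l11 to 25.4 and Bid to 4.19 TPM. The levels of Mcl1, Bbc3, Bax, Bad and Bid differed by more than 1.5-fold between the libraries: without replicate 2 they were 835, 355, 235, 108 and 2.54 TPM, and without replicate 1 they were 309, 88.8, 411, 67.3 and 5.04 TPM. No paired analysis was possible because the study has 1 group. With 2 libraries, no spread remains when one is left out, and the depth limits Bcl2, Bid and Pmaip1 most.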
